A study of Arabidopsis thaliana with 4 samples.

Results

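Chloroplasts carry their own bacterial-type ribosome, which makes the plastid-encoded subunits of the photosystems, Rubisco and the ATP synthase. Some of its proteins are encoded in the plastid genome. The rest are encoded in the nucleus, made on cytosolic ribosomes and imported, so the building of a chloroplast ribosome needs protein supplies from both compartments. Loss of such a nuclear-encoded protein is known to give pale plants or arrested embryos in Arabidopsis.

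The genes described here are the 38 nuclear genes of plastid ribosomal proteins (PRP), taken from a named list and matched by gene identifier among the 33341 genes measured. They comprise 24 genes of the large subunit (PRPL), 9 of the small subunit (PRPS) and 5 of the plastid-specific ribosomal proteins (PSRP). The PSRPs were first described as ribosomal proteins that bacteria lack, and in spinach PSRP2 to PSRP4 sit in the small and PSRP5 and PSRP6 in the large subunit. All 38 identifiers were found and all 38 passed the filter on low counts. As a check of the label, the RefSeq product of 36 of them names a ribosomal protein. The other products, of PRPL24 and PSRP2, name only a protein fold or an RNA-binding domain.

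Their transcripts were measured as read counts in mRNA libraries from whole Arabidopsis thaliana seedlings aged 12 days, which had grown on MS plates with 1% sucrose at 22 °C in days of 16 hours of light and 8 hours of dark. The genotype atprmt3, which carries a mutation in PRMT3, the gene of a protein arginine methyltransferase, had 1 library. The genotype rps2a2b, named for genes of RPS2, a protein of the cytosolic small subunit, also had 1 library. Col, the wild type, had 2 libraries. The titles of the mutant libraries end in -2 for atprmt3 and -1 for rps2a2b, and the labels do not say whether these numbers are alleles or lines, nor how many plants were pooled. Total counts on genes were 18650053 in atprmt3, 15194770 in rps2a2b, and 15646735 and 15637192 in Col.

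The difference between the Col libraries was no larger than sampling noise, so they were counted as 1 sample and each genotype is n = 1. All differences below are between libraries, not tested differences between genotypes, and no p-value is given. Levels are CPM, counts scaled to library size with TMM factors. A log2 fold change carries a read-sampling standard error (SE), widened by a variance factor of 6.12 taken from the mutant libraries. That factor can hold differences between the plants and genotypes of those libraries, but the SE measures no variation between plants of a genotype. A gene is called higher or lower where its log2 fold change was at least 0.32 from 0, a ratio of 0.8 or less in the lower direction. Because whole seedlings were pooled into bulk RNA, fewer green cells and less of a transcript per green cell cannot be told apart.

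The targeted genes were read first. PRMT3 had 132 counts in atprmt3, 315 in rps2a2b, and 237 and 254 in Col. RPS2A had 167 counts in rps2a2b, 580 in atprmt3, and 334 and 318 in Col. Each was lowest in the library labelled as its mutant, but reads remained. RPS2B had 0 counts in all 4 libraries, but none of its 50-base stretches is unique in the genome (0%), so it says nothing about the label.

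Levels per kilobase of exon put the chloroplast ribosomal protein transcripts within an order of magnitude of each other. The median member had 253 CPM per kilobase in atprmt3 and 193 in rps2a2b, against 205 and 200 in Col. The highest member exceeded the lowest 7.10-fold in atprmt3, 6.18-fold in rps2a2b, and 7.49-fold and 7.90-fold in Col. PRPS17, whose bacterial counterpart binds the small-subunit rRNA early in assembly, was the highest, at 778 CPM per kilobase in atprmt3, 559.6 in rps2a2b, and 698 and 709.8 in Col. Its gene (chromosome 1, 30041243 to 30041952 in TAIR10.1) lies wholly (100%) over exons of genes on the opposite strand. The libraries were made with a strand-marking protocol, but the strand setting of the counting is not stated. Reads on several genes were left out, and PRPS17 kept 10420 counts in atprmt3, 6388 in rps2a2b, and 7493 and 7605 in Col. Whether some of its reads were left out in this way is not known.

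The next highest in Col was PRPL10, with 444 CPM per kilobase in atprmt3, 343 in rps2a2b, and 453 and 453 in Col. In bacteria L10 anchors the L12 stalk, which recruits translation factors to the ribosome. PRPL3, PRPL24 and PRPL29 followed in Col, at 399.5, 392.9 and 374.9 CPM per kilobase. In Escherichia coli, L3 and L24 begin the assembly of the large subunit and L29 lies at the mouth of the peptide exit tunnel. The lowest 5 in Col were PSRP6 at 91.5, PRPL9 at 108.2, PSRP2 at 113.8, and the pair of PRPL19 genes at 117.1 (AT4G17560) and 118.2 (AT5G47190) CPM per kilobase. The PRPL19 pair differed by less than the Col libraries did from each other for either gene.

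**Figure D1:**
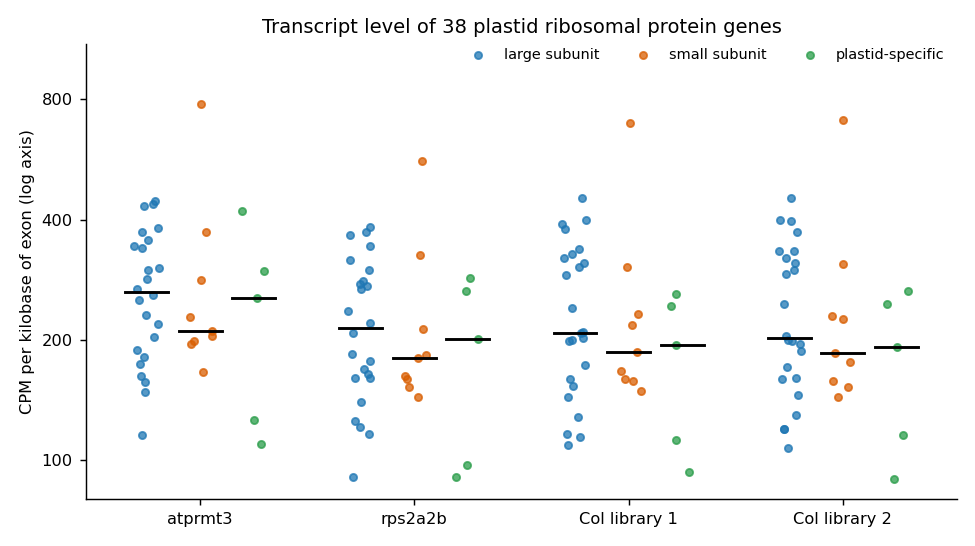
Level of each of the 38 genes in the 4 libraries, as CPM per kilobase of exon on a log axis, by subunit (colours), with a black bar at the median of each subunit. The medians over all members are 253 in atprmt3 and 193 in rps2a2b, against 205 and 200 in Col, and PRPS17 is the highest point in every library.

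In the atprmt3 library the chloroplast ribosomal protein transcripts stood mostly above Col, by small amounts. Of the 38 genes, 14 were called higher and 0 lower, beside 28.5% of all 20937 genes tested called higher and 25.65% called lower. The share of members called higher, 36.8%, was near that background, whereas none was called lower. The median log2 fold change of the members was 0.25, with 30 of 38 above 0 and a range from -0.24 to 0.68, while the median of all genes tested was 0.01. Among the 1813 genes that lie in the members' own range of mean levels (90.0 to 483 CPM), the median was -0.03, with 21.0% called higher and 22.8% lower. The summed level of the members was 10716 CPM in atprmt3, against 9420.5 and 9419.5 CPM in Col, a ratio of 1.14.

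This direction depends on how gene length and base composition are treated. The members are short, with a median exon length of 1008 bases against 1762.5 bases over all genes tested. When the trend of the log2 fold change with exon length and GC content was removed, the atprmt3 median of the members became -0.050, that of all genes -0.07, and 0 members were called higher and 3 lower. With a robust trend fitted to genes of at least 10 CPM, an alternative chosen after the data were seen, the median was 0.057 with 4 called higher, and the all-gene median was 0.01. The shares of all genes called after either trend was removed are not given here. What length and GC content contribute to the difference was not tested.

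The highest member in atprmt3 was PSRP5. PSRP5 (AT3G56910, chromosome 3, 21069411 to 21070356), a plastid-specific protein of the large subunit, had 290.9 CPM in atprmt3, 197.8 in rps2a2b, and 180.2 and 183.8 in Col. The atprmt3 library stood apart from the other libraries, which lay close together, and the log2 fold change against Col was 0.68 ± 0.081. PSRP5 shares 36.4% of its exon length with genes on the opposite strand.

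PRPL35 (AT2G24090, chromosome 2, 10241875 to 10243674), a small protein of the large-subunit core, had 260.3 CPM in atprmt3, 202.7 in rps2a2b, and 178.2 and 167.4 in Col. Both mutant libraries lay above both Col libraries, and the log2 fold changes were 0.59 ± 0.084 in atprmt3 and 0.23 ± 0.092 in rps2a2b. PRPL9 (AT3G44890, chromosome 3, 16386395 to 16388723), which in bacteria lies near the L1 stalk, showed the same order, with 191.1 CPM in atprmt3, 152.0 in rps2a2b, and 133.0 and 130.1 in Col. Its log2 fold changes were 0.54 ± 0.097 and 0.21 ± 0.11. With the length and GC trend removed, the atprmt3 values of these genes were 0.32 for PSRP5, 0.27 for PRPL35 and 0.31 for PRPL9, the highest of the list but no longer past the threshold.

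PSRP6 and PRPS20 completed the highest 5 in atprmt3. PSRP6, the member with the lowest level in Col, had 110.2 CPM in atprmt3, 79.6 in rps2a2b, and 81.6 and 78.7 in Col, with a log2 fold change of 0.46 ± 0.13. PRPS20, whose bacterial counterpart binds the small-subunit rRNA early, had 229.6 CPM in atprmt3, 184.7 in rps2a2b, and 168.4 and 176.8 in Col, with a log2 fold change of 0.41 ± 0.086. For both genes the atprmt3 library was the highest of the 4. At the edge of the call, the PRPL19 gene AT5G47190 was 1.252-fold and PRPL11, a protein at the base of the L12 stalk in bacteria, 1.249-fold higher in atprmt3, a difference far smaller than their SEs.

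The lowest member in atprmt3 was PRPL1. PRPL1 (AT3G63490, chromosome 3, 23444203 to 23446355), the protein of the L1 stalk at the exit site in bacteria, had 410.4 CPM in atprmt3, 398.3 in rps2a2b, and 487.7 and 480.7 in Col. Both mutant libraries lay below both Col libraries, with log2 fold changes of -0.24 ± 0.057 and -0.28 ± 0.060. PRPS9, PRPL4, PRPL3 and PRPL12A followed, at -0.15, -0.13, -0.07 and -0.06 in atprmt3, none of them called.

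In the rps2a2b library the same genes stood close to Col. None of the 38 was called higher (0) and 5 were called lower, beside 28.98% and 26.01% of all genes tested. The median log2 fold change was -0.07, with 16 members above 0, 22 below 0 and a range from -0.54 to 0.23. The median of all genes was 0.01, and that of genes in the members' range of levels -0.08. The summed level was 8807 CPM in rps2a2b, against 9420.5 and 9419.5 CPM in Col, a ratio of 0.935. The sign of this median depended on the setting. Scaled by total counts alone it was 0.062, where the median of all genes was 0.14. With the length and GC trend removed it was -0.30 with 17 members called lower, where the median of all genes was -0.09.

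PRPS9 (AT1G74970, chromosome 1, 28157386 to 28159317), whose bacterial counterpart reaches into the peptidyl site of the small subunit, was the lowest member in rps2a2b. It had 222.4 CPM in atprmt3, 170.4 in rps2a2b, and 243.8 and 251.3 in Col. The rps2a2b library was the lowest of the 4, and the log2 fold changes were -0.15 ± 0.079 in atprmt3 and -0.54 ± 0.088 in rps2a2b. PRPL10 (AT5G13510, chromosome 5, 4341262 to 4342095) had 370.4 CPM in atprmt3, 285.7 in rps2a2b, and 378.0 and 377.6 in Col, so that atprmt3 lay with Col and rps2a2b below, at -0.40 ± 0.069. The other called members were the PRPL19 gene AT4G17560 at -0.37 ± 0.11, PRPL3 at -0.34 ± 0.064 and PRPS17 at -0.33 ± 0.060. PRPL34, at 0.805-fold, lay just outside the threshold of 0.8 that PRPS17 (0.795-fold) and PRPL3 (0.793-fold) passed. PRPL10 and PRPS17 share 69.2% and 100% of their exon length with genes on the opposite strand.

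At the other end in rps2a2b stood PRPL35, PRPS1, PRPL9, PRPL27 and PRPL17, at 0.23, 0.22, 0.21, 0.19 and 0.17, none of them called. PRPS1, the mRNA-binding protein of the small subunit in bacteria, had 324.4 CPM in atprmt3, 286.3 in rps2a2b, and 250.1 and 241.6 in Col. PRPL27 lies near the peptidyl transferase centre in bacteria and had 239.0 CPM in atprmt3, 208.9 in rps2a2b, and 188.8 and 177.9 in Col. Both were highest in atprmt3, with rps2a2b between it and Col.

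**Figure D2:**
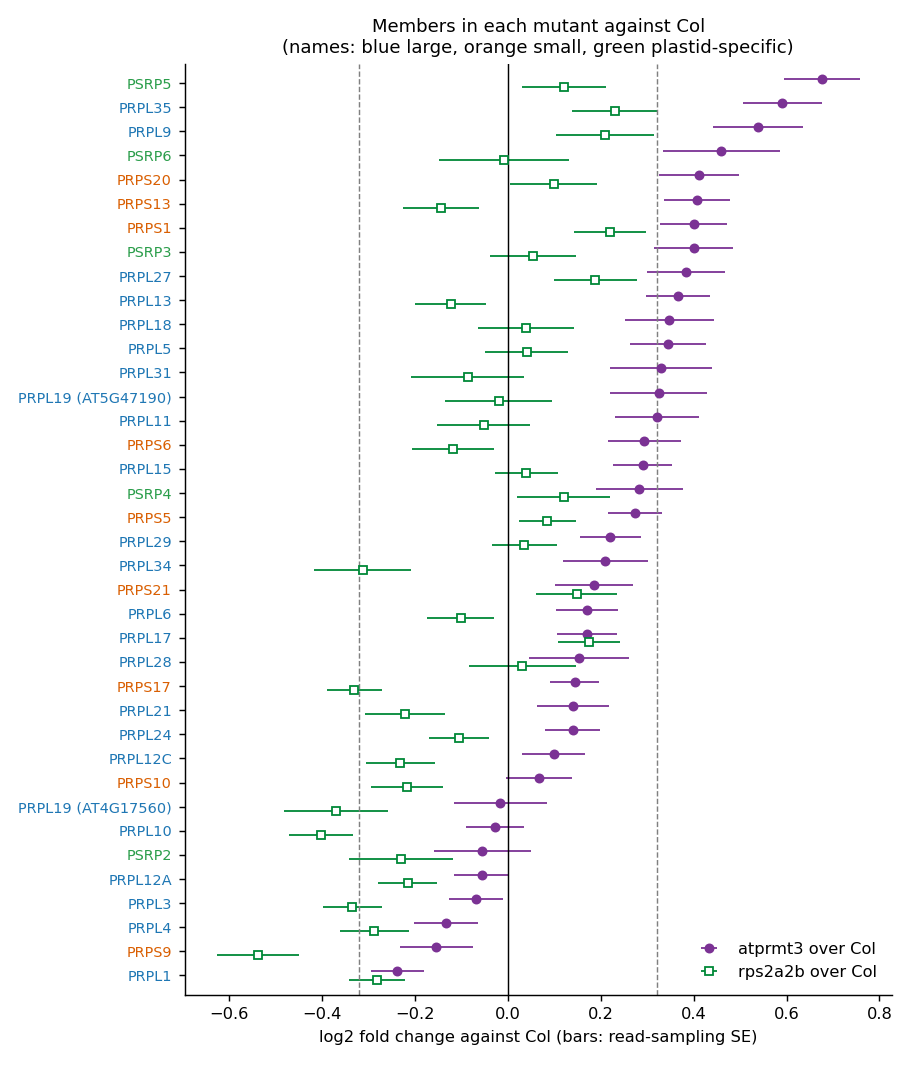
Log2 fold change of each gene in atprmt3 (filled circles) and rps2a2b (open squares) over Col, sorted by the atprmt3 value, with read-sampling SEs as bars and dashed lines at -0.32 and 0.32. Points of both mutants share the Col libraries, the atprmt3 points run from -0.24 to 0.68 and the rps2a2b points from -0.54 to 0.23.

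Set directly against atprmt3, the rps2a2b library was lower in 37 of the 38 members. A gene's Col counts do not enter this fold change, but the filter, scaling and fit used all 4 libraries. It is also the difference of the comparisons with Col, so it is not a separate line of evidence. The median log2 fold change of rps2a2b over atprmt3 was -0.31, with a range from -0.56 to 0.00. Of the members, 18 were called lower and 0 higher, beside 20.11% and 21.24% of all genes tested, and beside 9.49% and 5.35% of genes in the members' range of levels. Over all genes tested 49.9% were below 0 and the median was 0.00. Among genes in the members' range of levels 58.4% were below 0 and the median was -0.04. The summed level of the members was 8807 CPM in rps2a2b and 10716 CPM in atprmt3, a ratio of 0.822.

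The number below 0 stayed high under the scalings and filters tried, from 35 of 38 with total counts alone to 38 with upper-quartile factors, and was 36 with the length and GC trend removed and 34 with the robust trend. The median then ranged from -0.22 with the robust trend to -0.33 with upper-quartile factors. The count called lower was less steady, at 8 with total counts alone, 6 with the robust trend and 0 at 1.5-fold. At 1.5-fold 9.78% of all genes were lower. For total counts and the robust trend that share is not given, and the all-gene medians were 0.06 and 0.02. PSRP5, the lowest, was at -0.56 ± 0.080. PRPS13, a protein of the head of the small subunit in bacteria, had 225.0 CPM in rps2a2b and 329.7 in atprmt3, a log2 fold change of -0.55 ± 0.075, and lay at 250.2 and 247.2 CPM in Col.

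PRPL34, PRPL13 and PRPS17 were next, at -0.52 ± 0.098, -0.49 ± 0.070 and -0.47 ± 0.057. PRPL34, a short basic protein of the large subunit, had 131.3 CPM in rps2a2b and 188.6 in atprmt3, with 163.3 and 162.9 in Col between them. PRPL13, an early-binding protein of the large subunit in bacteria, had 256.8 CPM in rps2a2b and 360.6 in atprmt3, with 280.9 and 278.6 in Col. For all 3 of these genes Col thus lay between the mutants.

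The members that differed least between the mutants were PRPL17, PRPS21, PRPL1, PRPL28 and PRPL4, at 0.00, -0.04, -0.04, -0.12 and -0.15. PRPL17, which lies near the exit tunnel in bacteria, had 372.1 CPM in rps2a2b and 371.0 in atprmt3, against 326.8 and 332.8 in Col. PRPS21, known in Arabidopsis as GHS1 for the glucose hypersensitivity of its mutant, had 219.0 CPM in rps2a2b and 224.8 in atprmt3, against 200.6 and 194.8 in Col. These genes stood above Col in both mutant libraries, whereas PRPL1 and PRPL4 stood below it in both.

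**Figure D3:**
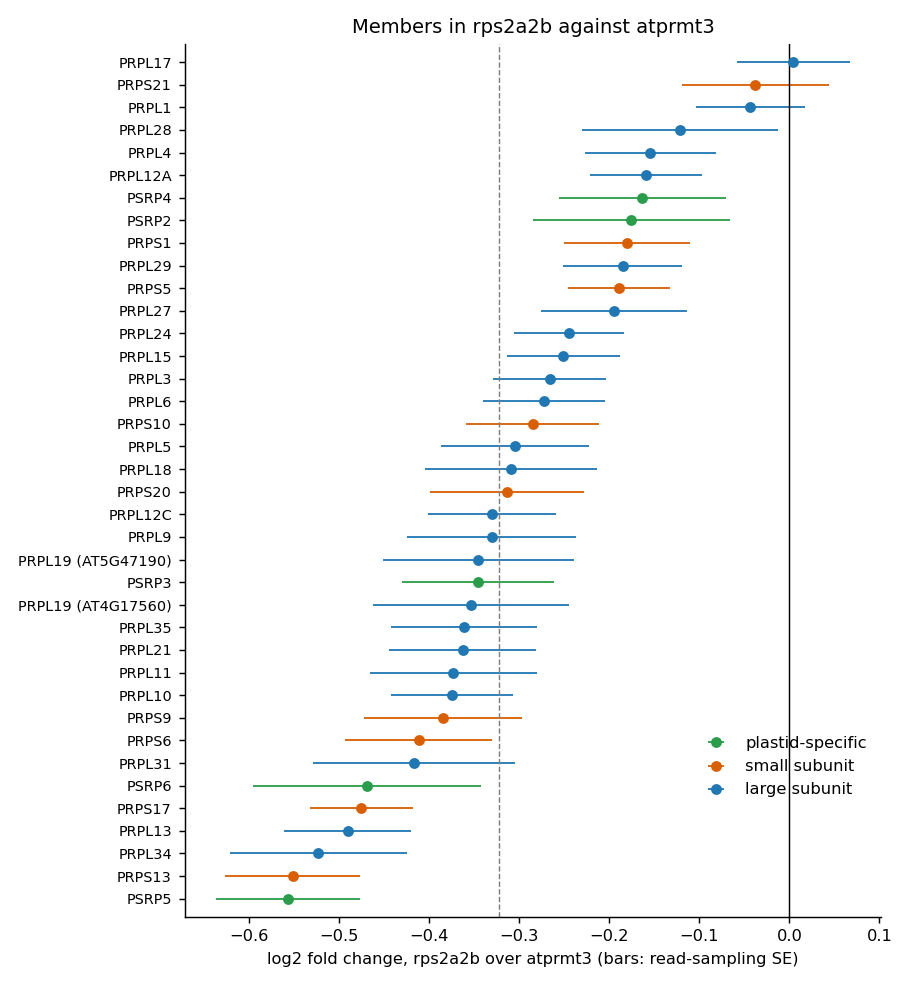
Log2 fold change of each gene in rps2a2b over atprmt3, sorted, with read-sampling SEs as bars, subunits as colours and a dashed line at -0.32. Of the 38 points 37 lie below 0, and PRPL17 lies at 0.00.

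**Figure D4:**
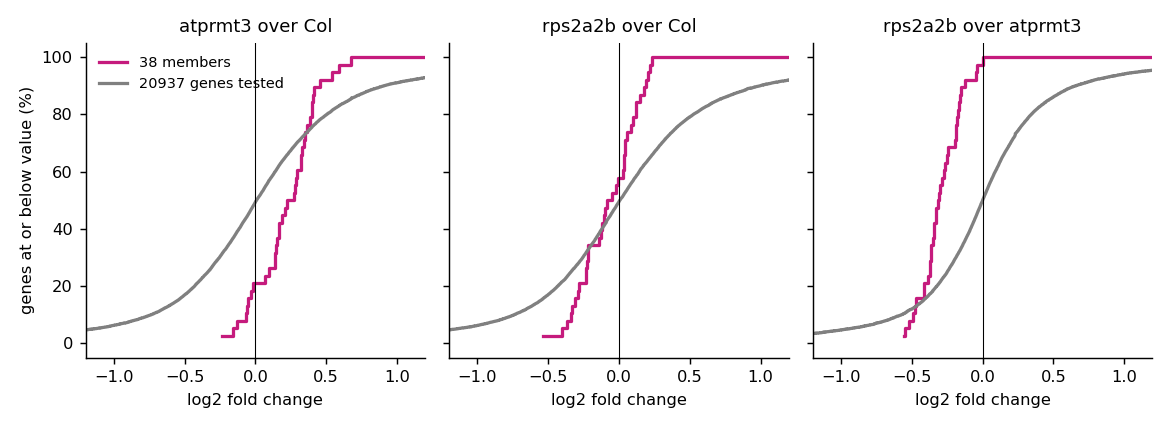
Share of genes at or below each log2 fold change, for the 38 members and the 20937 genes tested, in the 3 comparisons (values beyond the axis are not drawn). The curve of the members is shifted to 0.25 in atprmt3 over Col, lies near the curve of all genes at its middle in rps2a2b over Col (-0.07), and is shifted to -0.31 in rps2a2b over atprmt3.

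By subunit, the large and small subunits gave similar values in each comparison. In atprmt3 over Col the medians were 0.19 for the large subunit (8 of 24 called higher), 0.27 for the small subunit (3 of 9) and 0.40 for the plastid-specific genes (3 of 5), with 0 called lower in each. In rps2a2b over Col they were -0.09 (3 of 24 called lower), -0.12 (2 of 9) and 0.05 (0 of 5), with 0 called higher. In rps2a2b over atprmt3 they were -0.31 (11 of 24 called lower), -0.31 (4 of 9) and -0.35 (3 of 5). Of all genes tested, 28.5% were called higher and 25.65% lower in atprmt3 over Col. These shares were 28.98% and 26.01% in rps2a2b over Col, and 21.24% and 20.11% in rps2a2b over atprmt3. The SDs over genes in atprmt3 over Col were 0.21, 0.19 and 0.27, about the size of the largest difference between the medians. Assigned to their subunits, the plastid-specific genes change the medians little: the 26 large-subunit genes were then at 0.21, -0.07 and -0.32 in the 3 comparisons and the 12 small-subunit genes at 0.28, -0.03 and -0.30.

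The summed levels put the same comparison in transcripts. The large subunit summed to 6836 CPM in atprmt3 and 5713 in rps2a2b, against 6187 and 6173 in Col. The small subunit summed to 2929 CPM in atprmt3 and 2351 in rps2a2b, against 2509 and 2517 in Col. The plastid-specific genes summed to 951 CPM in atprmt3 and 742 in rps2a2b, against 725 and 729.6 in Col. The atprmt3 library was the highest in each class, and rps2a2b was below Col in the large and small subunits and slightly above it in the plastid-specific genes.

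The 5 plastid-specific genes gave a range of values. PSRP5 and PSRP6 are given above. PSRP3 (AT1G68590) had 237.6 CPM in atprmt3, 187.0 in rps2a2b, and 181.1 and 179.0 in Col, with log2 fold changes of 0.40 ± 0.085 and 0.05 ± 0.092. PSRP4 (AT2G38140) had 181.0 CPM in atprmt3, 161.7 in rps2a2b, and 147.9 and 149.6 in Col, at 0.28 ± 0.095 and 0.12 ± 0.10. PSRP2 (AT3G52150), which carries RNA-binding domains, did not stand above Col, with 131.2 CPM in atprmt3, 116.2 in rps2a2b, and 134.2 and 138.5 in Col, at -0.06 ± 0.10 and -0.23 ± 0.11. A second PSRP3 gene, AT5G15760, was barely expressed, with 58 counts in atprmt3, 95 in rps2a2b, and 51 and 58 in Col.

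PRPL12 and PRPL19 are each encoded by more than 1 gene. L12 forms the flexible stalk that recruits translation factors, and its genes lie close together on chromosome 3. PRPL12A and PRPL12C are 93.4% identical over their coding bases and 90.9% over their protein residues. Their longest identical run is shown because reads that fall wholly inside it cannot be assigned to either gene. It is coding sequence up to and including the stop codon, on the plus strand of TAIR10.1, at chr3:10318897-10319151 in PRPL12A and chr3:10325214-10325468 in PRPL12C.
PRPL12A and PRPL12C, shared 255 bases: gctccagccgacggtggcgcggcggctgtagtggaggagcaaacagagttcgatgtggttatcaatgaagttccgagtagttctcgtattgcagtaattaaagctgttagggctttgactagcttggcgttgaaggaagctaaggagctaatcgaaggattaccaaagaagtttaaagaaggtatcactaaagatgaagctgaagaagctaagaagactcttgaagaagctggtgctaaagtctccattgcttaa

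Of all 50-base stretches in the exons, 81.9% are unique in the genome for PRPL12A and 75.3% for PRPL12C, the lowest shares among the members. PRPS21 has 91.7% and every other member 100%. By this measure alone the PRPL12A and PRPL12C counts are the least certain, and it leaves out the overlaps with genes on the opposite strand. PRPL12A (AT3G27830, chromosome 3, 10318455 to 10319920) had 401.4 CPM in atprmt3, 359.4 in rps2a2b, and 416.8 and 418.2 in Col, at -0.06 ± 0.059 and -0.22 ± 0.064. PRPL12C (AT3G27850, chromosome 3, 10324788 to 10325746) had 329.0 CPM in atprmt3, 261.7 in rps2a2b, and 306.7 and 307.9 in Col, at 0.10 ± 0.068 and -0.23 ± 0.074. The rps2a2b library was the lowest of the 4 for both. The gene between them, PRPL12B (AT3G27840), had 0 counts in every library although all (100%) of its 50-base stretches are unique, which allows at most 3 counts per library, counting error only. Leaving out PRPL12A and PRPL12C gave member medians of 0.28, -0.04 and -0.31 in the 3 comparisons.

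The PRPL19 genes, on chromosomes 4 and 5, are 82.6% identical over their coding bases and 78.0% over their protein residues, and all 50-base stretches of both are unique (100%). L19 lies at the interface of the subunits in bacteria. AT4G17560 (chromosome 4, 9780224 to 9782183) had 142.2 CPM in atprmt3, 111.3 in rps2a2b, and 140.3 and 147.4 in Col, at -0.02 ± 0.10 and -0.37 ± 0.11. AT5G47190 (chromosome 5, 19164184 to 19166135) had 149.3 CPM in atprmt3, 117.6 in rps2a2b, and 117.4 and 121.1 in Col, at 0.32 ± 0.10 and -0.02 ± 0.12. So rps2a2b lay below Col for AT4G17560 and with Col for AT5G47190, while atprmt3 lay with Col for AT4G17560 and above it for AT5G47190. Between the mutants both copies gave nearly the same value, at -0.35 ± 0.11 for each.

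The 250 bases before each annotated gene start (TAIR10.1) were searched on both strands for motifs known from promoters of ribosomal protein and light-regulated genes. Site II (TGGGCC or TGGGCT), an element bound by TCP factors in Arabidopsis, was found before 14 of the 38 members (36.8%) and before 19.2% of 27443 protein-coding genes. The I-box core (GATAAG) was found before 9 (23.7%) and 12.3%. The telo-box (AAACCCT) was found before 4 (10.5%) and 7.33%, the G-box (CACGTG) before 3 (7.89%) and 6.49%, and the TATA box (TATAAA) before 20 (52.6%) and 47.3%. Matches may overlap, as TGGGCC and its reverse complement do in TGGGCCCA, and a match is only a run of letters.

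**Figure D5:**
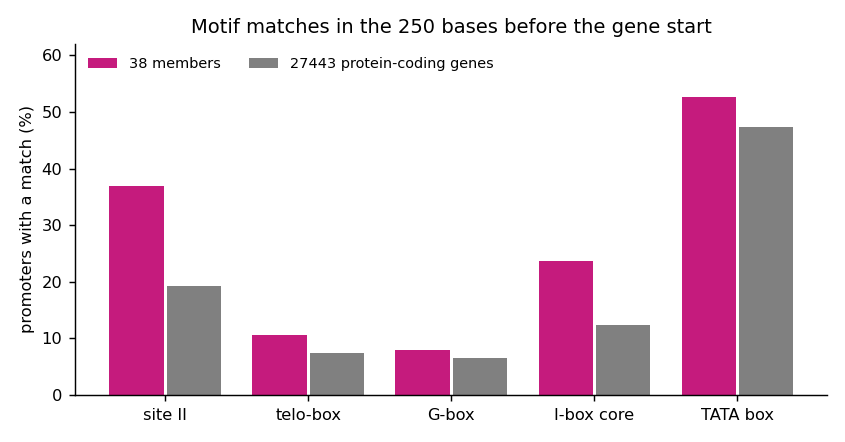
Share of promoters (the 250 bases before the gene start) with at least 1 match of each motif on either strand, for the 38 members and for 27443 protein-coding genes, as bars from 0. The largest differences are for site II (36.8% and 19.2%) and the I-box core (23.7% and 12.3%).

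The promoters of 4 members are shown because these genes lie at the ends of the range or hold most motifs: the PRPL19 gene AT4G17560 and PRPS9, both called lower in rps2a2b, PSRP5, the highest in atprmt3, and PSRP4, which holds 4 of the 5 motifs. Capitals mark site II and telo-box matches, and each sequence reads towards the gene. The windows are chr4:9779974-9780223 (plus strand), chr1:28159318-28159567 (minus), chr3:21070357-21070606 (minus) and chr2:15980598-15980847 (plus) of TAIR10.1, in the order below.
PRPL19 AT4G17560: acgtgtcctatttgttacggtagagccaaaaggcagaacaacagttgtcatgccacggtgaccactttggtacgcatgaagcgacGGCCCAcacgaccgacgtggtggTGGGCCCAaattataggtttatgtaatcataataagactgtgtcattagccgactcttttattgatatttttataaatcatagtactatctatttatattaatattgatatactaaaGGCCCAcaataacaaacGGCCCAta
PRPS9: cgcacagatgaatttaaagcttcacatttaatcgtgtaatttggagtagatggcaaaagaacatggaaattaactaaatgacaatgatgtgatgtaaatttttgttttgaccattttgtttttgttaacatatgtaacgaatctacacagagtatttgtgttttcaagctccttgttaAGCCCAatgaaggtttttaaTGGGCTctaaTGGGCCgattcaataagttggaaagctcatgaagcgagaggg
PSRP5: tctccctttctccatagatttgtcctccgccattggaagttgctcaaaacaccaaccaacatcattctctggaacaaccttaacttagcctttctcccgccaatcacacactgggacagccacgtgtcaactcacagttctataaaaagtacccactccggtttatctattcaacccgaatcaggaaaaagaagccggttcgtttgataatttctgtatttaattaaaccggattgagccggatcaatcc
PSRP4: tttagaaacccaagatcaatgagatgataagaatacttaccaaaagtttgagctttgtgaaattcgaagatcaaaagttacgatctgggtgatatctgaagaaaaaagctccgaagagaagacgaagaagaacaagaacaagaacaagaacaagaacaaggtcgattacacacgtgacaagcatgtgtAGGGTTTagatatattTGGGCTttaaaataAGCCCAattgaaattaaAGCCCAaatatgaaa

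The promoter of AT4G17560 holds 5 site II matches, and the last of them lies next to the gene start. PRPS9 holds 3 within the last part of its window. PSRP5 holds none, nor do PRPL35 and PRPL9, the next highest members in atprmt3. PRPL10 and PRPL3, also called lower in rps2a2b, hold none either, and PRPS17 holds 2. PRPL1, the lowest member in atprmt3, holds none, and the PRPL19 gene AT5G47190, called higher in atprmt3, holds 4. PSRP4 holds 3 site II matches and 1 telo-box. The members with and without site II had medians of 0.24 and 0.27 in atprmt3 over Col. In rps2a2b over Col the medians were -0.13 and 0.01, with 10 of 14 and 12 of 24 below 0, a difference that was not tested. In rps2a2b over atprmt3 they were -0.32 and -0.31. The 9 members with an I-box core had medians of 0.34, 0.04 and -0.25 in these comparisons, and the 29 without it 0.17, -0.12 and -0.33. All 9 were above 0 in atprmt3 over Col, as were 21 of the 29 others.

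Gene structure was read next. In 6 genes (PRPL3, PRPL4, PRPL10, PRPL12C, PRPS17 and PSRP6) the annotated exons of all transcripts merge into a single block. Such a block can cover an intron that some transcript keeps. These genes had a median of 0.03 in atprmt3 over Col and -0.31 in rps2a2b over Col, with 3 of 6 called lower. The 32 genes with several exon blocks had 0.29 and 0.01, with 2 of 32 called lower in rps2a2b. Of all genes tested, 26.01% were called lower there. Between the mutants the classes were alike, at -0.35 and -0.31. These classes were formed after the values were known and were not tested. The 9 genes that the annotation names for an embryo-defective mutant were at 0.27, -0.12 and -0.31, and the 29 others at 0.22, -0.01 and -0.31. The 19 genes with higher mean levels had medians of 0.14, -0.14 and -0.27, and the 19 with lower mean levels 0.32, 0.03 and -0.35. The 15 genes that share exon bases with a neighbour were at 0.29, -0.09 and -0.31, and the 23 that share none at 0.21, -0.05 and -0.28.

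Other genes of plastid gene expression were set beside the ribosomal proteins. Of all genes, 28.5% and 25.65% were called higher and lower in atprmt3, 28.98% and 26.01% in rps2a2b, and 21.24% and 20.11% between the mutants. Of 14 plastid translation factors, 1 was called higher and 2 lower in atprmt3, with a median of 0.06, and 1 higher and 5 lower in rps2a2b, with a median of -0.21. Initiation factor IF1 was the highest in both, at 0.46 ± 0.26 and 0.41 ± 0.27, followed in atprmt3 by the elongation factors EF-Ts and EF-Tu (RABE1B) at 0.19 and 0.16. In rps2a2b EF-Ts at 0.07 and the release factor HCF109 at 0.03 followed. The lowest in both were SVR9L1, an initiation factor 3, at -0.50 ± 0.16 and -0.69 ± 0.17, and PSRP1, a protein related to bacterial hibernation factors, at -0.47 ± 0.066 and -0.62 ± 0.072. Next from the bottom stood the GTPase LEPA at -0.24 in atprmt3 and the release factor APG3 at -0.58 in rps2a2b. Between the mutants 3 of 14 were called lower and 0 higher, with a median of -0.16.

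Of 16 factors of plastid ribosome assembly, 0 were called higher and 2 lower in atprmt3 (median 0.03), 1 higher and 4 lower in rps2a2b (median -0.03), and 0 higher and 3 lower in rps2a2b over atprmt3 (median -0.07). The RNA-binding protein SOT1, RIF1 and the helicase RH22 were the highest in atprmt3, at 0.30, 0.15 and 0.14, and the ribonuclease RNJ, RAP and the GTPase BPG2 the lowest, at -0.52, -0.35 and -0.17. In rps2a2b the GTPases DER, CPSAR1 and RIF1 were the highest, at 0.34, 0.13 and 0.08, and BPG2, the ribonuclease RNR1 and RAP the lowest, at -0.53, -0.44 and -0.43. Of 19 genes of plastid transcription, 2 were called higher and 3 lower in atprmt3 (median 0.07), 1 and 3 in rps2a2b (median -0.08), and 1 and 3 in rps2a2b over atprmt3 (median -0.07). FSD3, a superoxide dismutase of the plastid nucleoid, was the highest at 0.67 in atprmt3 and 0.60 in rps2a2b, and SCA3, the nuclear-encoded plastid RNA polymerase, was at -0.91 and -0.37. FLN1 and FSD2 at 0.34 and 0.25 were also high in atprmt3, and HMR and PTAC2 at 0.24 and 0.17 in rps2a2b. SIG1 and TRXZ at -0.40 and -0.34 were low in atprmt3, and SIG5 and SIG1 at -0.47 and -0.46 in rps2a2b. The counts of both lists stand beside all-gene shares of 28.5% higher and 25.65% lower in atprmt3 and 28.98% and 26.01% in rps2a2b. Between the mutants these shares were 21.24% and 20.11%.

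The signs of these near-zero medians are not fixed. With total counts alone the rps2a2b medians of assembly and transcription genes were 0.10 and 0.05, with the length and GC trend removed the atprmt3 medians of translation factors and transcription genes were -0.09 and -0.02, and the rps2a2b median of assembly genes was 0.00 with genes of at least 10 CPM and 0.01 with the robust trend.

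Cytosolic ribosomal proteins and photosystem genes were included as large sets at either end. The all-gene shares beside them were 28.5% higher and 25.65% lower in atprmt3 and 28.98% and 26.01% in rps2a2b. Between the mutants they were 21.24% and 20.11%. Of 189 genes that the reference annotation places in the cytosolic ribosome, a few of them with names from other compartments (MRPL11), 175 passed the filter, of which 151 were called higher and 1 lower in atprmt3 (median 0.58) and 134 higher and 5 lower in rps2a2b (median 0.51), RPS2A itself being among the 5. Between the mutants 9 were called higher and 22 lower, with a median of -0.09 (0.02 with the robust trend). Of 41 nuclear photosystem genes, 3 were called higher and 15 lower in atprmt3 (median -0.26), 1 and 32 in rps2a2b (median -0.62), and 0 and 23 in rps2a2b over atprmt3 (median -0.34). The chloroplast ribosomal proteins, at 0.25, -0.07 and -0.31, thus lay between these sets in both comparisons with Col and near the photosystem genes between the mutants. Against Col the plastid translation, assembly and transcription lists lay between these sets too. All lists were chosen with earlier results known, so this position is not particular to the members. The medians against Col of the cytosolic ribosomal and photosystem sets kept their sign in every scaling, filter and trend tried.

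Markers of tissues moved in the same libraries, where 28.5% of all genes were called higher and 25.65% lower in atprmt3. In rps2a2b these all-gene shares were 28.98% and 26.01%. The 3 green-tissue markers, RBCS1A, LHCB1.3 and PSBO1, summed to 30211 CPM in atprmt3 and 23440 in rps2a2b, against 36448 and 36250.3 in Col. Of them 0 were called higher and 1 lower in atprmt3, and 0 higher and 3 lower in rps2a2b. The 5 root markers, PYK10, EXPA7, SCR, SHR and CASP1, summed to 2973 CPM in atprmt3 and 3707 in rps2a2b, against 2717 and 2731 in Col, with 1 called higher and 3 lower in atprmt3 and 2 and 2 in rps2a2b. Nearly all of this sum is PYK10, at 2895 CPM in atprmt3 and 3636 in rps2a2b, while SCR, SHR and CASP1 were at -0.53, -0.50 and -0.60 in atprmt3 and -0.75, -0.31 and -0.88 in rps2a2b. The 4 markers of dividing cells, CYCB1;1, KNOLLE, CDC20.1 and CYCB1;3, summed to 105 CPM in atprmt3 and 97.3 in rps2a2b, against 43.7 and 44.8 in Col, with all 4 called higher in each mutant. None of the 12 markers was at 0 in all libraries (0 in each list). What part a different make-up of the seedlings has in the values of the chloroplast ribosomal proteins was not tested.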

How the data were processed

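Per the labels' protocols, RNA was extracted with Trizol and strand-marked mRNA libraries were made with dUTP. The deposited values are whole-number counts of reads per gene, without normalization. Per the submitters' processing notes, TopHat2, HTSeq, edgeR and the TAIR10 build were used, without versions. Read length and the strand setting of counting are not given in the sources used here. Reads on no gene made up 1.37% to 1.80%, reads on several genes 2.25% in atprmt3, 2.38% in rps2a2b, and 3.18% and 3.26% in Col, and reads with several alignments 6.74% to 7.16%. These rows were left out.

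The members and all lists were chosen with earlier results of these data known. Of 33341 gene identifiers, 33056 matched the RefSeq annotation of TAIR10.1, which gave names, positions, exon lengths and sequences.

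A chi-square comparison of the Col libraries on 20569 genes (10 or more counts in all) gave 0.989 per gene. Sampling of reads alone would give about 1, so both count as a single sample. They were summed for the Col level and the SEs. The edgeR and DESeq2 fits kept them as separate columns, so the spread in those tests comes from the Col pair alone. Within the members the log2 ratio of the Col libraries ran from -0.09 to 0.07.

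edgeR 4.0.16 (R 4.3.3) was fitted to all 4 libraries by quasi-likelihood, with TMM factors (0.965 to 1.06), on 20937 genes that passed filterByExpr (minimum count 10, minimum total 15). The fit was tested on simulated data with known fold changes. These data held read-sampling noise only and few changed genes. They therefore do not test the scaling, the added variance or the length and GC trend of the real libraries. Its p-values compare the reads of libraries, not genotypes, and none is printed. A gene was called at a log2 fold change of 0.32 in size. SEs cover read sampling with a variance factor of 6.12, the chi-square per gene between the mutant libraries over 4263 genes with 10 to 99 summed counts. The extra part was doubled for summed Col. Named members were the 5 highest and 5 lowest in each comparison, the plastid-specific genes, the PRPL12 and PRPL19 genes and the 5 highest and 5 lowest levels per kilobase in Col, and of other lists the 3 highest and 3 lowest against Col. PRPL11, which lay at the threshold, and the related genes PRPL12B and AT5G15760 lie outside this rule, and PRPL11 was chosen after its value was seen. Python 3.11.15 searched sequences, and DESeq2 1.42.0 was an alternative. Plastid-encoded ribosomal protein genes were not analysed here.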

Additional observations from a re-analysis of the deposited data

How the results depend on the processing

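Each genotype is n = 1, so no setting supplies a spread between plants. No paired analysis was possible because no mutant library belongs to a particular Col library. Shares of all genes called are not given for the other scalings and the trend settings, so those counts stand without a background.

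Members called higher in atprmt3 over Col (14) became 0 with the length and GC trend removed, 4 with the robust trend, 2 at 1.5-fold, 29 by the edgeR test and 23 by DESeq2, at an adjusted p of 0.05. The tests call 27.5% and 9.46% of all genes higher here. Those called lower (0) became 3, 4 and 1 with the trend removed, by edgeR and by DESeq2. At 1.5-fold 17.2% of all genes were higher. The median (0.25) was 0.28 with upper-quartile factors, 0.31 with total counts, -0.050 with the trend removed and 0.057 with the robust trend.

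In rps2a2b over Col, those called higher (0) became 3 with total counts, 9 by edgeR and 3 by DESeq2. Those called lower (5) became 3 with upper-quartile factors, 1 with total counts, 3 with genes of at least 10 CPM, 17 with the trend removed, 0 at 1.5-fold, 18 by edgeR and 12 by DESeq2. Of all genes, edgeR calls 26.7% higher and 25.9% lower here and DESeq2 9.62% and 10.5%. The median (-0.07) was 0.062 with total counts, -0.30 with the trend removed and -0.13 with the robust trend.

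In rps2a2b over atprmt3, those called lower (18) became 8 with total counts, 6 with the robust trend, 0 at 1.5-fold and 33 by edgeR, where 9.78% and 12.8% of all genes are lower at 1.5-fold and by edgeR. The median (-0.31) was -0.25 with total counts, -0.28 with the trend removed and -0.22 with the robust trend. The cause of these shifts was not tested.

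Without 1 Col library, the atprmt3 count ran from 12 to 15 higher and from 0 to 0 lower with medians of 0.25 to 0.25, and the rps2a2b count from 0 to 0 higher and 4 to 5 lower with medians of -0.08 to -0.06. Of 84 values of 28 named members, 50 moved beyond their read-sampling interval with the trend removed, 17 with the robust trend, 6 with total counts and 0 with the other scalings and filters. These settings use the same reads, and the interval is widened by the variance factor. It is thus only a yardstick of size, and a shift within it is not shown to be noise. Without 1 Col library 0 of the 56 values against Col moved. None of the called values among them changed sign.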
